A study of Mus musculus with 18 samples.

Results

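The interferon regulatory factors are transcription factors that share a DNA-binding domain and act on promoters with interferon-stimulated response elements. They were followed as 9 genes of 43280 symbols in the count table, taken by symbol: Irf1, Irf2, Irf3, Irf4, Irf5, Irf7, Irf8, Irf9 and Irf2bp2, the last of which encodes a corepressor that binds IRF2 and is no IRF itself. The RNA was from macrophages that had been cultured from bone marrow, and the marrow donors were C57BL/6J mice with no engineered mutation (genotype wildtype). Donors had received PBS, 1 treatment with LPS (the 1xLPS arm) or 4 of them (the 4xLPS arm) in vivo, and the cultures were then either left alone (NO) or given LPS in vitro (LPS). LPS, or lipopolysaccharide, is a bacterial cell wall product. The groups PBS_NO, 1xLPS_NO, 4xLPS_NO, PBS_LPS, 1xLPS_LPS and 4xLPS_LPS held 3 libraries each, 18 in all, with totals of 9296453 to 54050622 counted reads. The labels give no dose, time or age of the mice, and leave unstated whether a group's libraries are separate mice or cultures, so the tests speak only for the variation among these libraries, which may be technical.

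In macrophages, LPS is sensed by Toll-like receptor 4. Its adaptor TRIF leads to phosphorylation of IRF3, which with NF-kappaB switches on interferon beta, and its adaptor MyD88 works with IRF5 at inflammatory cytokine genes. Interferon beta then acts through its receptor, JAK1 and TYK2 to form ISGF3, a complex that contains IRF9, which drives antiviral genes and more IRF7. IRF1 is induced by interferon gamma and NF-kappaB and activates genes that IRF2 can hold down, while IRF8 and IRF4 set the fate of myeloid and lymphoid cells together with PU.1. Much of this control acts on the proteins, which messenger RNA does not show.

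The labels disagree in one respect that touches every comparison between in vivo arms. Titles, the series design text and the column names of the count table give 1 grouping, which was used. The treatment tags swap PBS with 4xLPS on 12 of 18 libraries, although each of the 18 columns carries a sample number whose tag names the column's own arm. If the tags of the same-titled samples were right, every 4xLPS against PBS direction below would turn, and the PBS and 4xLPS arms would trade names in the LPS responses. Comparisons named 1xLPS against PBS would then set 1xLPS against 4xLPS, and those named 4xLPS against 1xLPS would set PBS against 1xLPS. The differences of LPS response would change names in the same way.

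Macrophage markers were high in all libraries, with 6 of 7 listed markers in the table and a sum of 11300 to 20400 CPM (counts scaled to library size by TMM, here and below). Lyz2 (5710 to 15400 CPM) and Csf1r (2220 to 4160) made up most of that sum, while Mertk ranged from 17.5 to 161 and Fcgr1 from 13.4 to 114. Markers of B cells, of T and NK cells, of neutrophils and of dendritic cells summed to at most 19.9, 9.65, 103 and 62.2 CPM. Pax5, Flt3, Siglech and Cd3e, which define B cells, dendritic cells and T cells, were each below 0.3 CPM in every library. The higher members of these lists were Itgax (32.3 to 58.4 CPM), Ighm (4.67 to 19.5), Cd4 (2.33 to 9.09) and Zbtb46 (0.422 to 4.98). Among the neutrophil markers they were S100a9 (18.3 to 83.2 CPM, the highest of these lists), S100a8 (4.85 to 18.5) and Mpo (0.884 to 5.77). The 5 stromal markers were not low. They summed to 1070 to 1220 CPM in PBS_NO, 1490 to 2590 in 1xLPS_NO, 2100 to 2370 in 4xLPS_NO, 1870 to 2110 in PBS_LPS, 2150 to 4270 in 1xLPS_LPS and 3230 to 3350 in 4xLPS_LPS. The stromal sum thus moved with the arm and with LPS, none of its 5 genes was at 0, and its part in the results was not tested. In these bulk samples, fewer cells of a type and less RNA per cell cannot be told apart. In a principal component analysis 1xLPS_NO library 1 and 1xLPS_LPS library 3 stood apart on the second component, which held 14.2% of the variance, and results are given without them where that changes a call.

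In vitro LPS changed the family unevenly. Irf1 rose 10.1- to 18.7-fold in the 3 arms and Irf8 fell 2.26- to 2.62-fold in the 3 arms. Irf2bp2 fell in the PBS and 1xLPS arms, Irf7 and Irf5 rose in the PBS arm, and Irf9 fell in the 1xLPS arm. Irf2 and Irf3 were called in no arm. Genes were called at an adjusted p under 0.05 in edgeR's quasi-likelihood test with Benjamini-Hochberg adjustment over 14158 genes, of which 8 members were part. Irf4 did not reach the minimum of 1 CPM in 3 libraries.

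In the PBS arm 5 of the 8 tested members were called, 3 higher and 2 lower, where 25.3% of all tested genes were called, 14.0% higher and 11.3% lower. In the 1xLPS arm 4 were called, 1 higher and 3 lower, against 22.8% of all genes, 12.0% higher and 10.8% lower. In the 4xLPS arm 2 were called, 1 higher and 1 lower, against 18.9% of all genes, 10.6% higher and 8.29% lower. The members' median log2 fold changes were 0.079, -0.016 and 0.076 in the PBS, 1xLPS and 4xLPS arms, beside medians over all tested genes of -0.021, -0.00076 and 0.05. The libraries of the stimulated and unstimulated groups did not overlap for 4, 3 and 5 of the 8 members in the 3 arms, while 47.5%, 27.7% and 49.8% of all tested genes did not overlap.

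**Figure D1:**
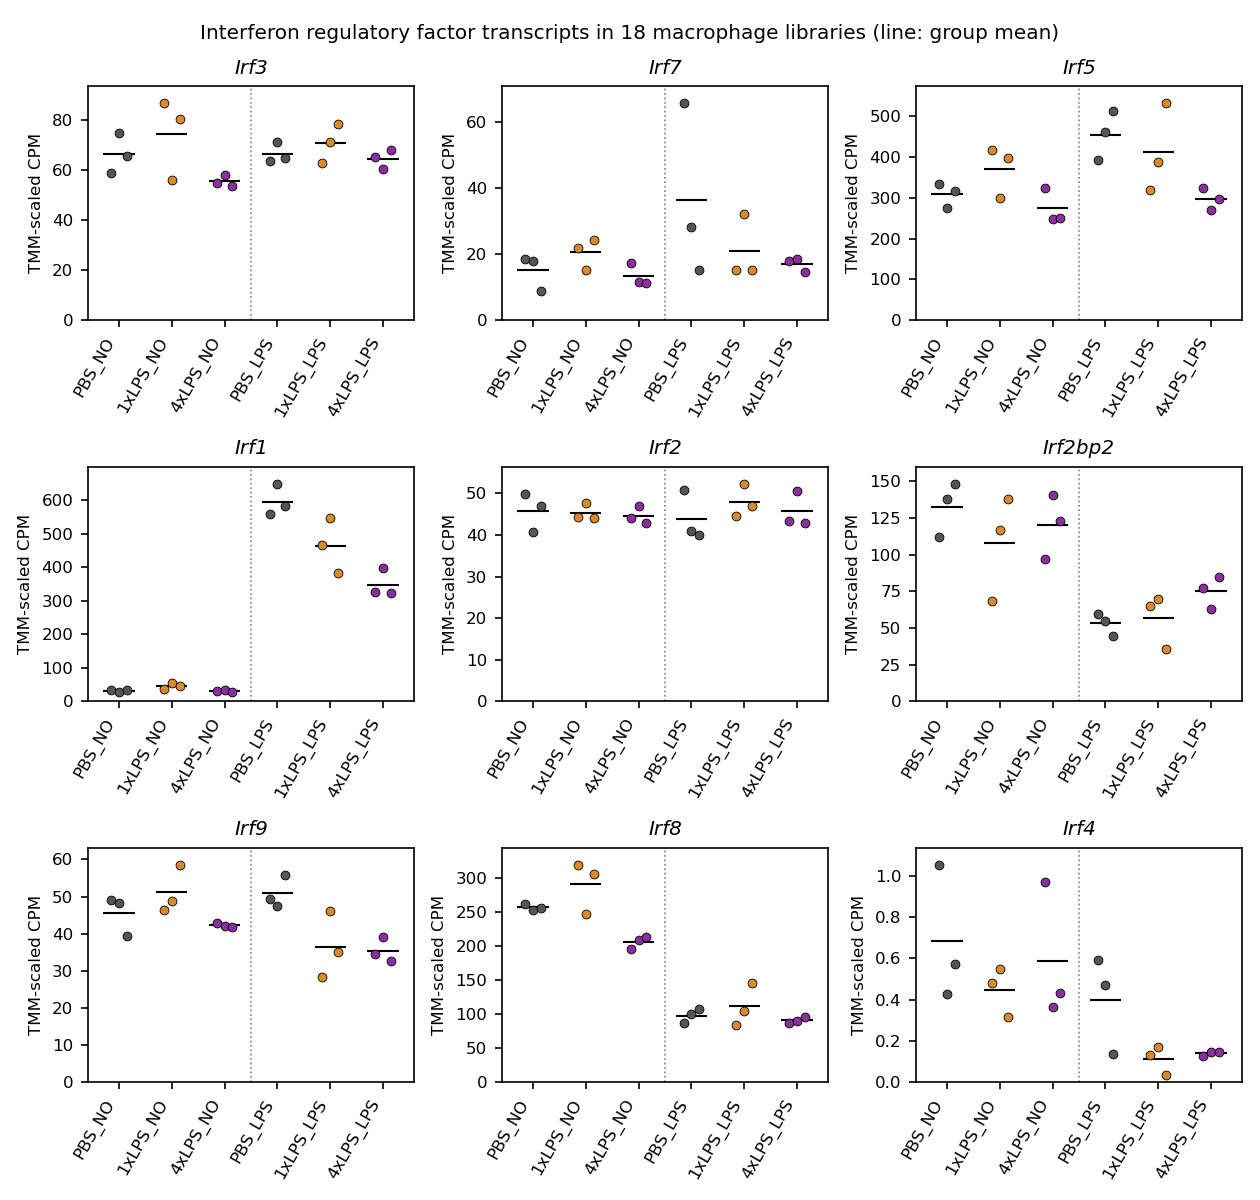
TMM-scaled counts, in CPM (y axes, linear, from 0, a scale for each gene) of the 9 genes in the 18 libraries, by group (x axes), with each point a library, each line a group mean of 3 and the dotted line between unstimulated and LPS-stimulated groups. Irf1 lay between 28.2 and 53.3 CPM in unstimulated libraries and between 322 and 648 in stimulated ones, Irf8 moved the other way, and Irf2 stayed between 39.9 and 52.2.

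Irf1 was the member with the largest response. The promoters of Irf1, of its antagonist Irf2 and of Irf8 are shown because these genes held the largest rise of the family, the narrowest range over the libraries and the fall that was called in all 3 arms, and because theirs were the only promoters of the 9 in which the searched motifs occurred. Each is the 250 bases before the RefSeq start (GRCm38.p6), 5′ to 3′ on the plus strand, with capitals for motif matches.
Irf1, chr11:53769764-53770013: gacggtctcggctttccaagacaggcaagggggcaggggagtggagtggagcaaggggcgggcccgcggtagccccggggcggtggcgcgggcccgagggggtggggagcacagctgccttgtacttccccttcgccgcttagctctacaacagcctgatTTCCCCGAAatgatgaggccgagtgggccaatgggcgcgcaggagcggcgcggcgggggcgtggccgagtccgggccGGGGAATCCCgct
Irf2, chr8:46739495-46739744: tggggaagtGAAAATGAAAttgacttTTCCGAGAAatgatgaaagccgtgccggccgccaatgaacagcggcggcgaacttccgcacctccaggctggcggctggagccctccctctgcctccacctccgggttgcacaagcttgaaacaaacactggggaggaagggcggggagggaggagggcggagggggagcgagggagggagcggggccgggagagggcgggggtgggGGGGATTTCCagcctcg
Irf8, chr8:120736108-120736357: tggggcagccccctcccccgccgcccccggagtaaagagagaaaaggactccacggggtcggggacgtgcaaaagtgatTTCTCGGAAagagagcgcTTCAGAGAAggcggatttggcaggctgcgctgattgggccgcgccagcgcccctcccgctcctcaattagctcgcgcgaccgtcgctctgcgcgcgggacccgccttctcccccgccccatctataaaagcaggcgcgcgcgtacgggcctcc

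The motif TTCNNNGAA, the form of a gamma-activated site, began 90 bases before the Irf1 start, 224 before the Irf2 start and 171 and 153 before the Irf8 start. It occurred in 7.02% of 32851 RefSeq promoter windows, searched on both strands. Irf2 alone of the 9 held the core of an interferon-stimulated response element (GAAA and GAAA with any 2 bases between, in 2.98% of windows), 241 bases before its start. It also held a kappaB form (GGG and TTTCC with any 2 bases between, in 1.41% of windows), 17 bases before the start. Irf1 held another kappaB form (GGGGA and TCCC with any base between, in 0.289% of windows), 13 bases before its start, a motif added after the promoter sequences had been seen. None of these matches overlapped another. All 9 members were found in the RefSeq table, with 12 windows between them, and a match is a string of letters and not a measured binding site. Both Irf9 windows lay downstream of the gene start given below (chr14:55603571). Other regions and looser forms of the motifs were not searched, so a window without a match does not show that a gene lacks such an element.

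Irf1 (chr11:53770014-53778374, plus strand, GRCm38) encodes an activator of interferon-inducible and antigen presentation genes. In libraries 1, 2 and 3 it was at 33.9, 29.1 and 32.6 CPM in PBS_NO, 37.7, 53.3 and 46.7 in 1xLPS_NO, then 30, 33.9 and 28.2 in 4xLPS_NO. After LPS it was at 558, 648 and 583 CPM in PBS_LPS, 466, 547 and 382 in 1xLPS_LPS, then 325, 398 and 322 in 4xLPS_LPS. Every stimulated library lay above every unstimulated one, and the lowest PBS_LPS library lay above the highest 1xLPS_LPS library. The log2 fold change with LPS was 4.22 ± 0.18 (SE) in the PBS arm, 3.34 ± 0.18 in the 1xLPS arm and 3.50 ± 0.18 in the 4xLPS arm, with adjusted p of 4.6e-11, 4.7e-10 and 4.4e-10 by edgeR. Among the 14158 tested genes, these were the increases of rank 82, 108 and 86. The group means fell in the order PBS_LPS, 1xLPS_LPS, 4xLPS_LPS, 1xLPS_NO, PBS_NO and 4xLPS_NO, where 1xLPS_LPS overlapped 4xLPS_LPS, and PBS_NO overlapped 4xLPS_NO.

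Irf2 (chr8:46739732-46847458, plus strand), whose product binds the same elements as IRF1 and is best known as their repressor, was the steadiest member. It ranged from 39.9 to 52.2 CPM over all 18 libraries, with group means of 43.9 to 48 CPM. Its log2 fold change with LPS was -0.066 (95% interval -0.34 to 0.21) in the PBS arm, 0.082 (-0.20 to 0.36) in the 1xLPS arm and 0.034 (-0.24 to 0.31) in the 4xLPS arm, with adjusted p of 0.76, 0.69 and 0.89 by edgeR. The sign of the last value turns with another scaling (-0.018 with RLE factors). None of its neighbours in the order of group means was separated from the next.

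Set against Irf2 per kilobase of transcript, Irf1 went from about even to an excess in every stimulated library. The ratio of the CPM per kilobase of Irf1 to that of Irf2 was 0.814 ± 0.021 (SD, n = 3) in PBS_NO, 1.18 ± 0.17 in 1xLPS_NO and 0.802 ± 0.035 in 4xLPS_NO. It was 16.1 ± 3.0 in PBS_LPS, 11.3 ± 1.6 in 1xLPS_LPS and 8.89 ± 0.24 in 4xLPS_LPS. The 3 libraries of PBS_LPS (12.8, 18.5 and 17.1) lay above those of 1xLPS_LPS (12.2, 12.2 and 9.48), and these above those of 4xLPS_LPS (8.74, 9.18 and 8.77), with no overlap. The gap between 1xLPS_LPS and 4xLPS_LPS was narrow (9.48 against 9.18), and Irf1 in CPM overlapped between them (382 to 547 against 322 to 398). The ratios are a description, without a test.

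**Figure D2:**
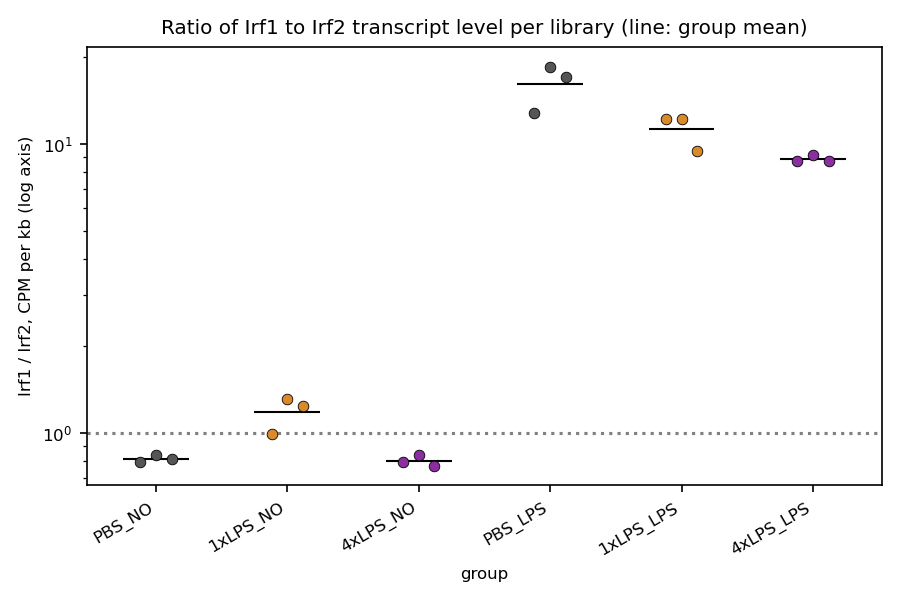
Ratio of Irf1 to Irf2, each in CPM per kilobase of its longest coding transcript (y axis, log scale), by group (x axis), with each point a library, lines at group means of 3 and the dotted line at equal levels. The ratio lay between 0.771 and 1.31 in unstimulated libraries and between 8.74 and 18.5 in stimulated ones.

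Irf2bp2 (chr8:126588296-126593986, minus strand) encodes the IRF2-binding corepressor. It was at 112, 138 and 148 CPM in PBS_NO, 68.3, 117 and 138 in 1xLPS_NO, then 96.8, 141 and 123 in 4xLPS_NO. After LPS it was at 59.3, 55.1 and 44.8 CPM in PBS_LPS, 65.2, 69.8 and 35.9 in 1xLPS_LPS, then 77.1, 63.2 and 84.7 in 4xLPS_LPS. The stimulated libraries lay below the unstimulated ones in the PBS and 4xLPS arms and overlapped them in the 1xLPS arm, where the 2 libraries that stood apart were the lowest of their groups. It fell by 1.33 ± 0.26 (SE) on the log2 scale in the PBS arm (adjusted p = 0.00075, edgeR) and by 0.92 ± 0.25 in the 1xLPS arm (adjusted p = 0.014). The call in the 1xLPS arm was lost without 1xLPS_NO library 3 (adjusted p = 0.084) and in a fit of the compared groups alone (0.11). In the 4xLPS arm the log2 fold change was -0.68 ± 0.25 and was not called (adjusted p = 0.071, edgeR). It was called there with DESeq2 (adjusted p = 0.029) and with edgeR without the 2 libraries that stood apart, which belong to neither group (-0.73, adjusted p = 0.0024), with the compared groups alone (-0.73, 0.0047), with no low count filter (-0.69, 0.013) and, at the threshold, with RLE factors (-0.74, 0.05). Leaving out any 1 library of that arm gave no call (adjusted p of 0.06 to 0.22). Of its exon bases, 20.5% overlap the antisense gene Gm26759, and the strand setting of the counting is not given in the sources used here.

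Some genes listed with Irf2bp2 also fell. Of the 4 related or linked genes, Irf2bpl, a relative, and Vegfa, a growth factor gene for blood vessels that IRF2BP2 is known to co-activate, fell in the PBS, 1xLPS and 4xLPS arms, and none rose. The log2 fold change of Irf2bpl was -1.97 ± 0.22, -1.51 ± 0.22 and -1.005 ± 0.21 (SE), and that of Vegfa -1.59 ± 0.19, -1.41 ± 0.18 and -1.36 ± 0.18, in that order of arms. Irf2bp1 was not called in any arm (log2 fold change 0.11, 0.13 and 0.26). The median of the list was -0.81, -0.70 and -0.57.

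Irf8 (chr8:120736358-120756694, plus strand), which encodes the factor that commits myeloid precursors to the monocyte and macrophage fate, was among the more abundant members before LPS. It was at 262, 252 and 255 CPM in PBS_NO, 318, 247 and 305 in 1xLPS_NO, then 195, 209 and 213 in 4xLPS_NO. After LPS it was at 86.3, 100 and 107 CPM in PBS_LPS, 83.8, 105 and 145 in 1xLPS_LPS, then 87.3, 90.2 and 95.4 in 4xLPS_LPS. Every stimulated library lay below every unstimulated one, the 3 stimulated groups overlapped, and the 4xLPS_NO libraries lay below those of PBS_NO and 1xLPS_NO. Its log2 fold change was -1.39 ± 0.17 (SE) in the PBS arm, -1.38 ± 0.17 in the 1xLPS arm and -1.18 ± 0.17 in the 4xLPS arm, with adjusted p of 5.5e-06, 7.5e-06 and 4.9e-05 by edgeR. Beside this, the macrophage markers Mertk and Fcgr1 had means of 142 ± 17.3 and 89.7 ± 9.4 CPM (SD, n = 3) in PBS_NO and of 20 ± 1.68 and 24.7 ± 5.9 in PBS_LPS. The other macrophage markers did not share this drop. Between the same groups the mean of Csf1r went from 2710 to 3750 CPM and that of Cd68 stayed at 1460. Itgam went from 353 to 267 CPM and Lyz2 from 13100 to 10300. The part of these markers in the result was not tested.

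The transcription factors listed with IRF8 and IRF4 rose where they were called, with an exception. In the PBS arm 4 of 7 listed factors rose and 1 fell, and in each of the other arms 3 rose and none fell. Of all tested genes, 14.0% were called higher and 11.3% lower in the PBS arm, 12.0% and 10.8% in the 1xLPS arm, and 10.6% and 8.29% in the 4xLPS arm. Spi1, which encodes PU.1, rose by 1.56 ± 0.16 (SE, log2), 0.97 ± 0.16 and 1.19 ± 0.16 in the PBS, 1xLPS and 4xLPS arms. Batf, an AP-1 factor that pairs with IRF4 and IRF8, rose by 2.24 ± 0.31, 1.82 ± 0.31 and 1.57 ± 0.31. Klf4 was called in no arm (-0.095, -0.45 and 0.034). The exception, named after its value was seen, was Runx1, a blood cell factor, which fell by 0.36 ± 0.13 in the PBS arm (adjusted p = 0.046, edgeR). The list's median log2 fold change was 1.23, 0.65 and 0.71.

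Irf4 (chr13:30749226-30766976, plus strand), which encodes the factor tied to alternative macrophage activation and to lymphocytes, was near the limit of detection. Its 3 libraries held 36, 12 and 16 reads in PBS_NO, 13, 31 and 3 reads in 1xLPS_NO, then 17, 9 and 9 reads in 4xLPS_NO. After LPS they held 8, 10 and 7 reads in PBS_LPS, 4, 6 and 1 reads in 1xLPS_LPS, then 3, 4 and 7 reads in 4xLPS_LPS. All were at or below 1.05 CPM, where a count of 3 stands for 0.0555 to 0.323 CPM in these libraries. In a fit with no low count filter its log2 fold change with LPS was -0.86 ± 0.77, -1.95 ± 0.84 and -2 ± 0.83 (SE) in the PBS, 1xLPS and 4xLPS arms, with adjusted p of 0.61, 0.17 and 0.16 by edgeR, and Irf4 was not called. Its stimulated libraries lay below the unstimulated ones without overlap in the 1xLPS arm (0.0366 to 0.169 against 0.316 to 0.546 CPM) and in the 4xLPS arm (0.128 to 0.148 against 0.365 to 0.969 CPM), and overlapped them in the PBS arm. The 0.316 CPM stood for 3 reads in 1xLPS_NO library 3, so the separation in the 1xLPS arm rests on a count at the floor. Of the 7 listed genes of IRF4 and alternative activation, 4 were tested, and Arg1, Retnla and Ccl17 were below the filter. Kdm6b, the histone demethylase gene that acts upstream of Irf4, rose by 2.44 ± 0.28, 1.83 ± 0.28 and 1.96 ± 0.28. Il4ra, the interleukin 4 receptor gene, fell in the 1xLPS and 4xLPS arms (log2 fold change -0.50 ± 0.15 and -0.63 ± 0.15), and Mrc1, a mannose receptor gene, in the 4xLPS arm (-0.70 ± 0.20). The median over the 4 genes was 0.11, -0.093 and -0.17.

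**Figure D3:**
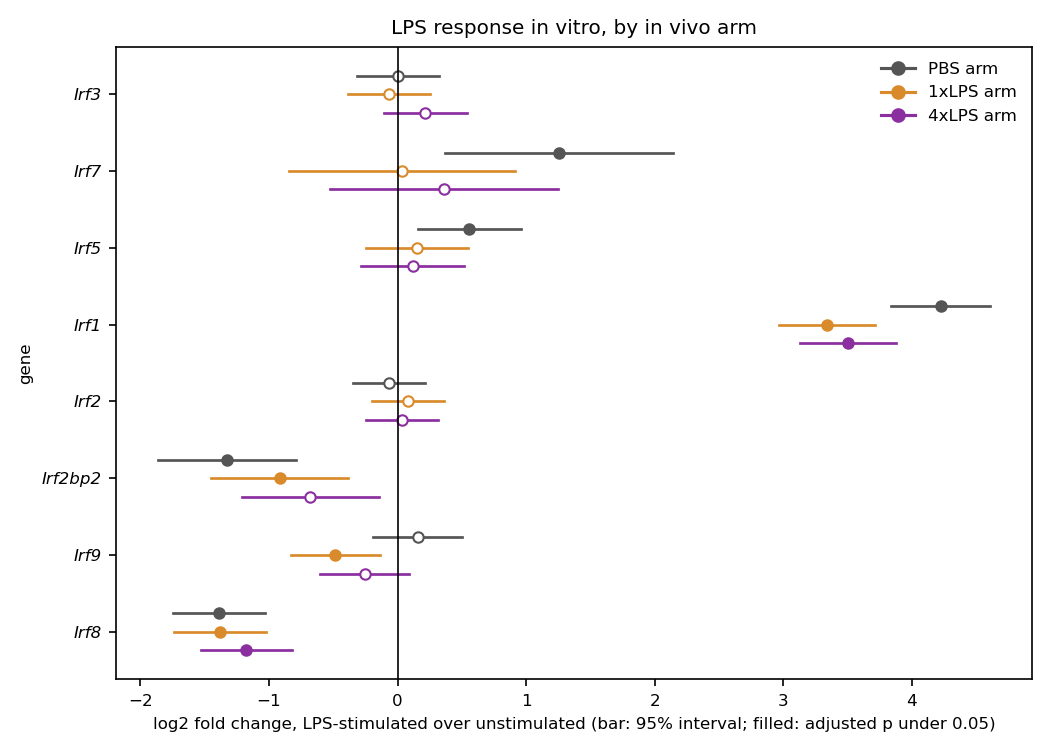
Log2 fold change of LPS-stimulated over unstimulated libraries (x axis) for the 8 tested members (y axis) in the PBS, 1xLPS and 4xLPS arms, with 95% intervals from edgeR's quasi-likelihood fit and filled points where the adjusted p was under 0.05. Irf1 lay between 3.34 and 4.22, Irf8 between -1.39 and -1.18, and the intervals of Irf2 and Irf3 included 0 in each arm.

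Irf3 (chr7:44997648-45002848, plus strand), the factor that TRIF signalling activates without new synthesis, had group means from 55.5 CPM in 4xLPS_NO to 74.3 CPM in 1xLPS_NO. It ranged from 53.7 to 86.6 CPM over the 18 libraries, and both ends of that range were unstimulated. Its log2 fold change with LPS was 0.0025 (95% interval -0.32 to 0.32) in the PBS arm, -0.070 (-0.39 to 0.25) in the 1xLPS arm and 0.22 (-0.10 to 0.54) in the 4xLPS arm, with adjusted p of 0.99, 0.78 and 0.36 by edgeR. In the 4xLPS arm the stimulated libraries (65, 60.5 and 68 CPM) did not overlap the unstimulated ones (55, 57.8 and 53.7 CPM).

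Irf7 (chr7:141262706-141266481, minus strand), the interferon-inducible factor that amplifies type I interferon, was the most variable tested member in PBS_LPS and 1xLPS_LPS, with coefficients of variation of 72.2% and 47.5%. It was at 18.6, 18 and 8.72 CPM in PBS_NO, 21.9, 15.3 and 24.4 in 1xLPS_NO, then 17.2, 11.5 and 11.3 in 4xLPS_NO. After LPS it was at 65.7, 28.1 and 15.2 CPM in PBS_LPS, 15.2, 32.3 and 15.1 in 1xLPS_LPS, then 18, 18.6 and 14.6 in 4xLPS_LPS. PBS_LPS library 1 stood well above the rest, PBS_LPS library 3 lay within the PBS_NO range, and the groups overlapped in all 3 arms. It rose by 1.26 ± 0.42 (SE) on the log2 scale in the PBS arm (adjusted p = 0.036, edgeR), and without PBS_LPS library 1 the value was 0.52 (adjusted p = 0.35). The call was also lost without PBS_NO library 1, 2 or 3 (log2 fold change 1.43, 1.40 and 0.98, adjusted p = 0.052, 0.06 and 0.14). The edgeR fit of the compared groups alone lost it too (1.25, adjusted p = 0.058). In the 1xLPS and 4xLPS arms the log2 fold change was 0.037 ± 0.42 and 0.36 ± 0.42 (adjusted p = 0.96 and 0.6), and the sign in the 1xLPS arm turned without 1xLPS_LPS library 2 (-0.43).

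Irf5 (chr6:29526625-29541871, plus strand), the MyD88-linked factor of inflammatory cytokine genes, was the most abundant member in unstimulated macrophages both in CPM and per kilobase, at 122 to 166 CPM per kilobase as a group mean beside 72.2 to 102 for Irf8. It was at 333, 275 and 318 CPM in PBS_NO, 417, 299 and 397 in 1xLPS_NO, then 324, 249 and 251 in 4xLPS_NO. After LPS it was at 392, 461 and 513 CPM in PBS_LPS, 320, 387 and 532 in 1xLPS_LPS, then 325, 271 and 298 in 4xLPS_LPS. The PBS_LPS libraries lay above those of PBS_NO and above those of 4xLPS_LPS, while stimulated and unstimulated libraries overlapped in the 1xLPS and 4xLPS arms. It rose by 0.56 ± 0.19 (SE) on the log2 scale in the PBS arm (adjusted p = 0.038, edgeR). That call was lost without PBS_NO library 1, 2 or 3 and without PBS_LPS library 2 or 3, with log2 fold changes of 0.44 to 0.62 and adjusted p of 0.061 to 0.16. It was also lost in the edgeR fit with no low count filter (0.58, adjusted p = 0.055). The log2 fold change was 0.15 ± 0.19 in the 1xLPS arm (adjusted p = 0.6) and 0.12 ± 0.19 in the 4xLPS arm (adjusted p = 0.71). Of its exon bases, 14.1% overlap the antisense gene Tnpo3.

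Irf9 (chr14:55603571-55610030, plus strand), the DNA-binding part of ISGF3, was at 49.2, 48.2 and 39.5 CPM in PBS_NO, 46.3, 48.8 and 58.4 in 1xLPS_NO, then 43, 42 and 41.8 in 4xLPS_NO. After LPS it was at 49.3, 47.5 and 55.7 CPM in PBS_LPS, 28.3, 46.2 and 35.1 in 1xLPS_LPS, then 34.5, 39.2 and 32.6 in 4xLPS_LPS. The stimulated libraries lay below the unstimulated ones in the 1xLPS arm, narrowly (46.2 against 46.3 CPM), and in the 4xLPS arm, and overlapped them in the PBS arm. It fell by 0.48 ± 0.16 (SE) on the log2 scale in the 1xLPS arm (adjusted p = 0.041, edgeR), and the log2 fold change was 0.16 ± 0.16 in the PBS arm (adjusted p = 0.52) and -0.26 ± 0.16 in the 4xLPS arm (adjusted p = 0.31). The call was lost without the 2 libraries that stood apart (-0.52, adjusted p = 0.059), with no low count filter (-0.41, 0.31) and with the compared groups alone (-0.52, 0.25). It was also lost without 1xLPS_NO library 3 (-0.38, 0.16) and without 1xLPS_LPS library 1 (-0.33, 0.19) or 3 (-0.46, 0.077). Part of Irf9 overlaps Rnf31 on the same strand (2.3% of exon bases), and reads there cannot be assigned.

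Genes upstream of the family rose in part. Of the 12 listed genes of the pathway that activates IRFs, 8 rose in the PBS arm, 9 in the 1xLPS arm and 7 in the 4xLPS arm, and none fell, with median log2 fold changes of 0.92, 0.69 and 0.70. Of all tested genes, 14.0%, 12.0% and 10.6% were called higher in those arms. Tank, a scaffold of the kinases that phosphorylate IRF3 and IRF7, rose by 2.08 ± 0.22, 1.84 ± 0.22 and 1.97 ± 0.22 (SE, log2). Myd88 rose by 1.56 ± 0.14, 0.99 ± 0.14 and 1.11 ± 0.14. Ikbke, which encodes such a kinase, went from 73.6 ± 7.5 CPM (SD, n = 3) in PBS_NO to 314 ± 27 in PBS_LPS. Tbk1, the other kinase, had a log2 fold change of 0.50 ± 0.19 in the PBS arm (adjusted p = 0.06), and Irak1 was called in no arm.

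Of the 11 listed interferon, receptor and JAK-STAT genes, 9 were tested. In each arm 3 rose, Jak2, Tyk2 and Ifngr1, and none fell, with medians of 0.33, 0.33 and 0.16. Beside them, 14.0%, 12.0% and 10.6% of all tested genes were called higher in the PBS, 1xLPS and 4xLPS arms. Jak2 rose by 2.48 ± 0.27, 2.31 ± 0.27 and 2.18 ± 0.27 (SE, log2). Jak1 (0.33, 0.19 and 0.09) and Ifngr2 (0.14, 0.33 and 0.16) were called in no arm. Ifnb1, which encodes interferon beta, was below the filter, at a mean of at most 0.14 CPM in any group, and so was Ifng.

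Targets of these factors rose in large part. The share of all tested genes called higher was 14.0%, 12.0% and 10.6% in the PBS, 1xLPS and 4xLPS arms. Of 17 tested ISGF3 target genes, 13, 10 and 10 rose in the PBS, 1xLPS and 4xLPS arms and none fell, with medians of 2.59, 2.52 and 2.44. Cxcl10, a chemokine gene, rose from 0.57 ± 0.31 CPM (SD, n = 3) in PBS_NO to 297 ± 109 in PBS_LPS, and Ifit1, an antiviral gene, from 3.37 ± 1.39 to 91.8 ± 22.3. Bst2 and Oasl2 were not called (log2 fold change 0.14 ± 0.20 and 0.39 ± 0.28 in the PBS arm). Of 14 IRF1 target genes, 12, 8 and 8 rose and 0, 1 and 1 fell, with medians of 3.04, 2.55 and 2.54. Psmb9 was not called in the PBS arm (log2 fold change -0.25 ± 0.23, SE). Psmb8 and Tap1 were not called in the 1xLPS arm (0.18 ± 0.22 and 0.49 ± 0.20) or the 4xLPS arm (0.11 ± 0.22 and 0.55 ± 0.20). Irg1, which encodes the itaconate-making enzyme, rose by 9.52 ± 0.35, 8.70 ± 0.34 and 8.19 ± 0.33 (SE, log2), and Gbp5, a guanylate-binding protein gene, by 8.98 ± 0.50, 7.46 ± 0.48 and 7.95 ± 0.51. Il18bp, named after its value was seen, was the target that fell (log2 fold change -0.70 ± 0.23 in the 1xLPS arm and -0.90 ± 0.23 in the 4xLPS arm). Of the 5 cytokines that IRF5 acts on, 5, 5 and 4 rose. Tnf rose by 7.36 ± 0.35, 6.25 ± 0.33 and 6.07 ± 0.33. The list's median was 7.64, 6.15 and 5.90, or 7.36 and 5.87 in the PBS and 4xLPS arms with Il12b and Il23a set at the bound given by 3 counts over a group where they were at 0.

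Between in vivo arms no member was called in any of the 6 comparisons or in the 3 differences of LPS response. In 4xLPS_LPS against PBS_LPS, edgeR called 11 of 14158 genes, 0.0777% (0.0636% higher and 0.0141% lower). An unadjusted p under 0.05 was held by 1963 of the 14158 genes and by 4 of the 8 tested members. Libraries of the 2 groups did not overlap for 4 members, beside 28.8% of all tested genes. The log2 fold change was -0.78 ± 0.16 (SE) for Irf1 (adjusted p = 0.094), -0.61 ± 0.19 for Irf5 (adjusted p = 0.18), -0.52 ± 0.16 for Irf9 (adjusted p = 0.18) and -1.08 ± 0.42 for Irf7 (adjusted p = 0.27), all by edgeR. Irf1, Irf5 and Irf9 had every 4xLPS_LPS library below every PBS_LPS library, and Irf2bp2 had every one above (63.2 to 84.7 against 44.8 to 59.3 CPM). The other 4 members lay between -0.11 and 0.50, with a member median of -0.31 beside 0.016 over all genes.

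That comparison depended on the fit. DESeq2 called Irf1 and Irf5 lower (adjusted p = 0.00089 and 0.044), as did the fit with the compared groups alone (0.025 and 0.046) and the fit without the 2 libraries that stood apart, which belong to neither group (0.0097 and 0.028). With no low count filter Irf1 and Irf7 were called (0.022 and 0.0017). The number of genes called over the whole table moved at the same time. With no low count filter it was 140 higher and 108 lower, of 36511. It was 139 higher and 187 lower with DESeq2, 158 and 114 with the compared groups alone, and 236 and 344 without the 2 libraries. It was 0 without PBS_LPS library 2 or any 1 of the 4xLPS_LPS libraries, 2 higher and 1 lower without PBS_LPS library 1, and 8 higher and 27 lower without PBS_LPS library 3. Without PBS_LPS library 1 the log2 fold change of Irf7 was -0.34. Stromal markers summed to 3230 to 3350 CPM in 4xLPS_LPS and 1870 to 2110 in PBS_LPS, and their part in the difference was not tested.

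**Figure D4:**
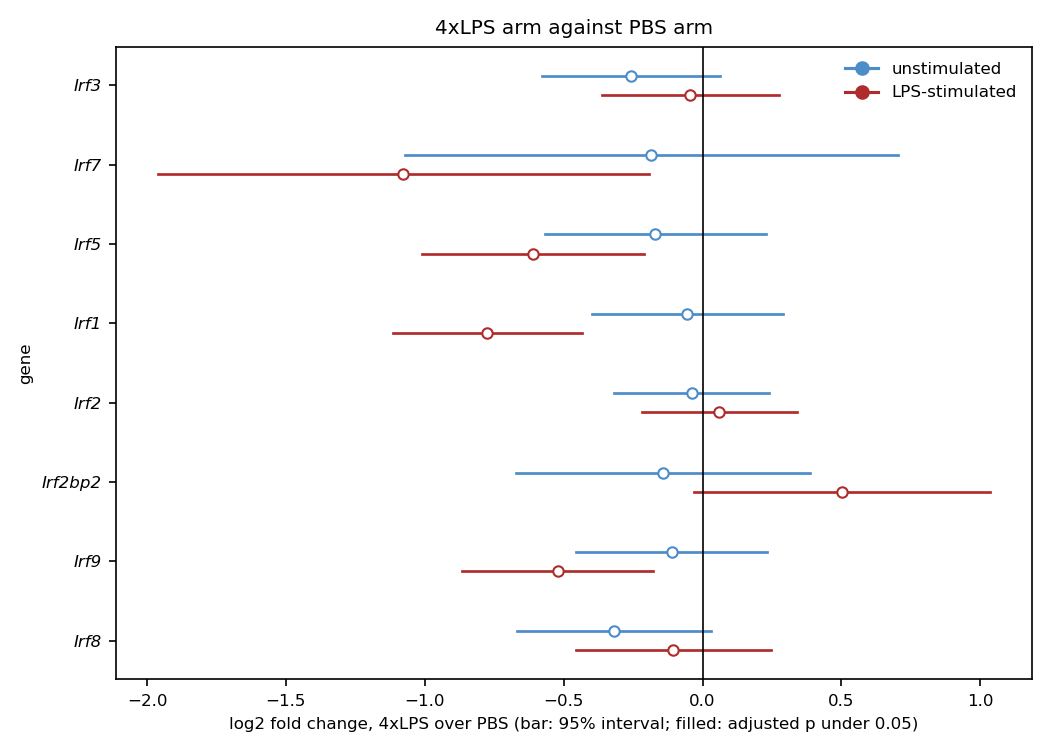
Log2 fold change of the 4xLPS arm over the PBS arm (x axis) for the 8 tested members (y axis), unstimulated and LPS-stimulated, with 95% intervals from edgeR's quasi-likelihood fit; open points mark an adjusted p of 0.05 or more. In stimulated cells the intervals of Irf1, Irf5, Irf7 and Irf9 lay below 0, and in unstimulated cells every interval included 0.

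The targets listed with these factors were not called in this comparison either. The median log2 fold change of 4xLPS_LPS over PBS_LPS was -0.66 for 17 ISGF3 targets, -0.68 for 14 IRF1 targets and -1.72 for 5 IRF5 cytokines, with none called. Tnf had a log2 fold change of -1.28 ± 0.27 (SE, adjusted p = 0.094, edgeR), Irg1 of -0.81 ± 0.24 (0.17) and Cxcl10 of -0.75 ± 0.28 (0.25). The medians of the other 5 lists lay between -0.41 and 0.15.

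In the other 5 comparisons between arms edgeR called 0 of 14158 genes (0%), and 0 members. At an unadjusted p under 0.05 there were 1669 genes for 1xLPS_NO against PBS_NO, 849 for 4xLPS_NO against PBS_NO, 1352 for 4xLPS_NO against 1xLPS_NO, 1085 for 1xLPS_LPS against PBS_LPS and 848 for 4xLPS_LPS against 1xLPS_LPS. In the same order 1, 0, 4, 2 and 2 members had such a p, and DESeq2 called 0 members in each. Over all genes DESeq2 called 26 higher and 2 lower, 106 and 4, 7 and 30, 9 and 2, and 1 and 0, in that order. It gave an adjusted p to 14155, 12783, 11412, 14155 and 14155 genes. Other fits with edgeR also made calls over all genes. Without 1xLPS_NO library 2 there were 807 higher and 786 lower for 1xLPS_NO against PBS_NO, and for 4xLPS_NO against PBS_NO there were 228 and 8 with the compared groups alone and 233 and 7 without the 2 libraries that stood apart. With no low count filter 35 to 159 of 36511 genes were called in each of the 5. Libraries did not overlap for 1, 2, 3, 2 and 0 members, beside 11.4%, 18.9%, 12.1%, 12.0% and 14.4% of all tested genes.

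Irf1 had such a p in 4 of these 5 comparisons, which share groups with each other. Its log2 fold change was 0.53 ± 0.16 (SE) for 1xLPS_NO against PBS_NO (adjusted p = 0.36, edgeR), -0.58 ± 0.16 for 4xLPS_NO against 1xLPS_NO (0.37), -0.36 ± 0.16 for 1xLPS_LPS against PBS_LPS (0.64) and -0.42 ± 0.16 for 4xLPS_LPS against 1xLPS_LPS (0.73). Its unstimulated level was thus highest in 1xLPS_NO, with libraries above those of both other arms, and its stimulated level highest in PBS_LPS. Without the 2 libraries that stood apart, Irf1 was called lower in 4xLPS_NO than in 1xLPS_NO (-0.70, adjusted p = 0.047), with 1xLPS_NO then at 2 libraries and 38 genes called higher and 23 lower.

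Irf8, Irf3 and Irf5 also had such a p for 4xLPS_NO against 1xLPS_NO, with log2 fold changes of -0.50 ± 0.17, -0.42 ± 0.15 and -0.43 ± 0.19 (SE; adjusted p = 0.39, 0.4 and 0.48, edgeR). Irf3 was called without 1xLPS_NO library 2 (-0.59, adjusted p = 0.033), a fit in which 1xLPS_NO held 2 libraries and 239 genes were called higher and 315 lower. Irf9 had a log2 fold change of -0.48 ± 0.16 for 1xLPS_LPS against PBS_LPS (adjusted p = 0.58), and Irf5 of -0.47 ± 0.19 for 4xLPS_LPS against 1xLPS_LPS (0.73). For 4xLPS_NO against PBS_NO the 8 members lay between -0.32 and -0.04, all with an adjusted p of at least 0.93, although every 4xLPS_NO library lay below every PBS_NO library for Irf3 and Irf8.

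The differences of LPS response put the arms' responses against each other. Over all genes edgeR called 0 of 14158 (0%) in each of the 3, with 1154 genes at an unadjusted p under 0.05 for 1xLPS minus PBS, 803 for 4xLPS minus PBS and 300 for 4xLPS minus 1xLPS. Members with such a p numbered 2, 1 and 0, and DESeq2 called 10 genes higher and 24 lower, 0 and 6, and 0 and 0. DESeq2 gave an adjusted p to 10039, 4276 and 14155 genes in that order, not to all 14158. For 1xLPS minus PBS the difference of Irf1 was -0.88 ± 0.23 (SE, log2; 95% interval -1.37 to -0.40, adjusted p = 0.35, edgeR), which DESeq2 called (-0.92, adjusted p = 0.046). For 4xLPS minus PBS the difference of Irf1 was -0.72 ± 0.23 (-1.20 to -0.24, adjusted p = 0.81), and DESeq2 called 0 members there and for 4xLPS minus 1xLPS. Irf9 had a difference of -0.64 ± 0.23 for 1xLPS minus PBS (adjusted p = 0.51). Irf7, Irf5, Irf9 and Irf2bp2, which were called in some arms and not in others, are therefore not shown to respond differently between arms.

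The members also differed in which other genes tracked them across the 18 libraries, which share the LPS contrast and are described without a test. The closest genes by Pearson's r of log2(CPM + 1), out of 9342 genes with a mean of at least 5 CPM, were Tnfaip2 and Ampd3 for Irf1 (0.996 each), Susd3 and Eepd1 for Irf8 (0.983 and 0.982), Spry2 and Slc8b1 for Irf2bp2 (0.958 and 0.953), and Ctsz and Ahsa1 for Irf5 (0.958 and 0.937). Irf3 was closest to Rsph3a and Ehbp1l1 (0.864 and 0.855), Irf7 to Zbp1 and H2-K1 (0.836 and 0.833), Irf9 to Slc9a8 and Dnajc16 (0.82 and 0.792) and Irf2 to Guca1a and Sri (0.708 and 0.655). Zbp1 is itself among the listed ISGF3 targets. Between members, Irf1 and Irf8 had r = -0.92, Irf1 and Irf2bp2 -0.82, and Irf5 and Irf2bp2 -0.72.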

How the data were processed

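RNA was measured in 18 libraries of 6 groups. Per the labels' protocols, poly(A) RNA selected from 500 ng of total RNA was sequenced as Ion Total RNA-seq libraries on an Ion Proton instrument. Per the submitters' processing notes and the labels, the software included Torrent Suite 5.12, TopHat2, Bowtie2 and Cufflinks, with mm10. The sources used here name no counting program, annotation or strand setting. The deposited table, on a sheet named for RPM, held whole numbers with unequal totals and was taken as raw counts per gene symbol, as the authors deposited them. A second sheet was not used.

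Libraries were grouped by title. Genes with at least 1 CPM in 3 or more libraries (14158 of 43280) were fitted with edgeR 4.0.16 (glmQLFit and glmQLFTest, TMM scaling, R 4.3.3) on all 18 libraries at once, with group means as the coefficients and no block (12 residual degrees of freedom). The 12 contrasts were adjusted by Benjamini-Hochberg and called at 0.05. The procedure was tested on simulated data. Levels per kilobase used the longest coding transcript of GENCODE M21 (GRCm38). Floors of 3 counts cover counting error only.

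All 9 members were described in every contrast. From each list the rule took up to 3 called genes by p and 2 uncalled by level; Runx1, Il18bp and list genes under the filter were named in addition, after their values were seen. Some items are not reported here. The members, lists and tests were chosen with earlier results of these data known. Alternatives were DESeq2 1.42.0, RLE factors, no filter, only the compared groups, a replicate block, leaving out each library and leaving out the 2 libraries that stood apart. Same-numbered libraries deviated together, with r of 0.58, 0.2 and 0.37, in 4xLPS_NO and PBS_NO; each other comparison of 2 groups had a number at or under 0.1, and what a number marks is unstated.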

Additional observations from a re-analysis of the deposited data

How the results depend on the processing

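Every alternative kept Irf1 higher and Irf8 lower, past the threshold, with LPS in each arm. With edgeR 5, 4 and 2 members were called in the LPS responses of the PBS, 1xLPS and 4xLPS arms, and leaving out 1 library gave 3 to 4, 2 to 4 and 2; without PBS_NO library 1, 2 or 3 the PBS count was 3, and without 1xLPS_NO library 3 the 1xLPS count was 2. Calls over all genes moved too, from 3579 to between 2691 and 2966 in those PBS fits and from 3228 to 2317 in that 1xLPS fit. A fit of the compared groups alone gave 2 members in the 1xLPS arm, with 1113 genes called. The 4xLPS count was 3, with Irf2bp2, under RLE factors, no filter, the compared groups alone, DESeq2 and without the 2 libraries that stood apart. In that order 18.9%, 6.84% (of 36511), 34.5%, 22.4% and 28.7% of all genes were called, beside 18.9% in the fit that gave 2. For 4xLPS_LPS against PBS_LPS the count of 0 became 2 with DESeq2, with no filter, with only the compared groups and without the 2 libraries that stood apart, and leaving out 1 library left it at 0. With the fits that gave 2, in that order, 2.3%, 0.679% (of 36511), 1.92% and 4.1% of all genes were called, beside 0.0777%. For 4xLPS_NO against 1xLPS_NO the member count became 1 without the 2 libraries that stood apart, and leaving out 1 library gave 0 to 1. For the difference 1xLPS minus PBS it became 1 with DESeq2. The cause was not tested.

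The replicate block changed no call of a member: the counts were 5, 4 and 2 in the LPS responses and 0 elsewhere, and the blocked log2 fold change of Irf1 in 4xLPS_LPS against PBS_LPS was -0.78 (adjusted p = 0.064).

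Single genes were followed for the LPS responses and for comparisons with an unadjusted p under 0.05, 40 of 96 values, a restriction chosen after seeing the data. Over all 96, the sign turned in 60 of 1296 alternative values, none of them called in either fit. Among the 40, Irf2 in the 4xLPS arm (0.034) turned to -0.0175 with RLE factors, -0.0135 with only the compared groups, -0.0092 without the 2 libraries and -0.0182 with DESeq2. Leaving out 1 library gave -0.066 to 0.077 for that value, -0.077 to 0.096 for Irf3 in the PBS arm, and -0.24 to 0.059, -0.43 to 0.22 and -0.085 to 0.31 for Irf3, Irf7 and Irf5 in the 1xLPS arm. Low counts limit Irf4.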
